A study of Macrobrachium rosenbergii with 32 samples.

Results

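The deletions described here are short losses of bases at the Mr-cofilin cut-site whose ends share 0 or 1 nt of microhomology. They were chosen from the allele tables of window 20 as alleles with 0 inserted bases and a single gap of 2 to 16 nt that lies wholly inside the 40 aligned columns. Microhomology was taken as the number of bases by which the gap can slide along the sequence without changing the product, and deletions that slide by 0 or 1 nt were kept. The rule uses sequence and length and no read counts. It found 1124 distinct aligned alleles of 4187 in the series, and these fall into 155 distinct deletions, 118 with 0 nt and 37 with 1 nt of microhomology. In the deposited tables they make up 2733 of 9262 allele entries of positive controls and 36 of 2620 of negative controls. Short deletions with 2 or 3 nt of microhomology, 131 distinct aligned alleles in all, served as the class to compare with.

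The series holds 16 nucleofection experiments on embryonic primary cells of the giant freshwater prawn *Macrobrachium rosenbergii*, each with the eggs of a single female. Positive controls were cells that received Cas9 with the sgRNA for Mr-cofilin, and negative controls were cells nucleofected without sgRNA. There is 1 library of each kind per experiment, from embryos of 10 to 14 days of age and from DNA taken 72 h after nucleofection. Both kinds of control share the culture, the nucleofection and the amplified region, and each library pools the many cells of a culture, so that shares are shares of reads and not of cells or clones.

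Cas9 cuts both strands of DNA next to the PAM, a short motif beside the sequence that the sgRNA matches. Non-homologous end joining seals such breaks directly, often with the loss or gain of a few bases, and needs no matching bases at the ends. Microhomology-mediated end joining anneals a short repeat on either side of the break and loses 1 copy of the repeat together with the bases between the copies. Mr-cofilin encodes an actin-binding protein that turns over actin filaments.

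The sgRNA is shown first, followed by the target site in the orientation of the gene. Positions are counted from the cut-site, with 1 just right of it and −1 just left of it, and the printed site runs from −10 to 20. Capitals mark the PAM in the first copy of the site and the bases matched by the sgRNA in the second.
sgRNA: catatgactagctggccaca
site with the PAM: accgCCCtgtggccagctagtcatatgtgg
site with the protospacer: accgcccTGTGGCCAGCTAGTCATATGtgg

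In this orientation the PAM lies left of the cut-site and most of the protospacer lies right of it. The sgRNA stands at 8770 to 8789 on the plus strand of the annotated region of scaffold 867, and the gene is on the minus strand. It lies 79 nt downstream of the last exon of the manual gene model, at 8869 to 8931, and inside the 3′ UTR that the Maker prediction places at 5712 to 8862. All of these positions are those of the annotation. In the sequence given for the region, 20971 nt long, the sgRNA matches once at 8710 to 8729, 60 nt lower than its annotated position, and the distance to the exon was therefore taken within the annotation only.

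The 5 most frequent deletions are shown on the same stretch with the deleted bases in capitals, followed by the most frequent deletion with at least 2 nt of microhomology, a loss of 4 nt.
2 nt at 2 to 3: accgccctgtgGCcagctagtcatatgtgg
5 nt at 1 to 5: accgccctgtGGCCAgctagtcatatgtgg
2 nt at 1 to 2: accgccctgtGGccagctagtcatatgtgg
9 nt at 1 to 9: accgccctgtGGCCAGCTAgtcatatgtgg
3 nt at 2 to 4: accgccctgtgGCCagctagtcatatgtgg
with microhomology, 4 nt at 2 to 5: accgccctgtgGCCAgctagtcatatgtgg

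The losses of 5 nt and of 9 nt each end before a G, the base with which they begin, and this G is their 1 nt of microhomology. Such deletions can be written in 2 places, and they are given here at the leftmost one. All of the first 5 take bases only from the side away from the PAM.

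The depth of the libraries was 17505 to 58396 aligned reads for positive controls (median 34148.5) and 17475 to 54340 for negative controls (median 30039.5). At these depths 0 reads allow a share of up to 0.00514% to 0.0172%, the equivalent of 3 reads. Reads carried no molecular identifier that the sources describe, and for this reason limits and Wilson intervals cover counting error only. Experiments 4 to 7 have tables in the opposite orientation to the others, called reverse here, and their alleles were turned round. The longest deletion in the positive controls of these 4 experiments is 16 nt in each, whereas it is 28 to 92 nt in the other 12. The positive control of experiment 8 stood apart, with 11 of the 155 deletions against 36 to 102 in any other positive control, and its longest deletion was 28 nt. The negative control of experiment 15 held indels in 1.67% of its reads, and no other negative control was above 0.0744%. Values that turn on these libraries are given with and without them.

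The first question is how much of the reads these deletions take with and without sgRNA. They made up between 3.38% and 13.3% of the reads of the positive controls, with a median of 8.16%, and between 0% and 0.358% of those of the negative controls, with a median of 0.00129%. The lowest positive control, experiment 5, lay far above the highest negative control, experiment 15. Experiment 3 had the highest share, 13.3% (95% Wilson interval 12.9 to 13.6), and experiments 1 and 5 stood below all others with 4.09% (3.90 to 4.29) and 3.38% (3.20 to 3.56). The intervals of single libraries were narrower than the spread between experiments.

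**Figure D1:**
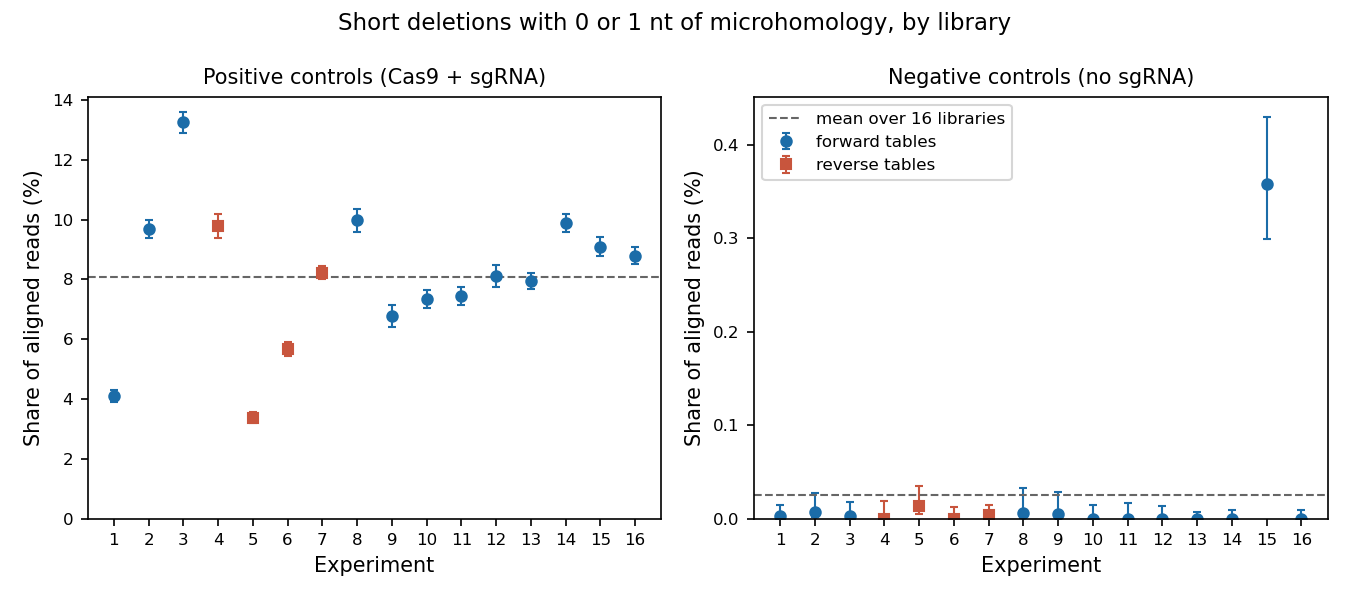
Share of aligned reads (%) with a short deletion of 0 or 1 nt of microhomology in each positive control (left) and each negative control (right), by experiment, with 95% Wilson intervals and the mean over 16 libraries as a dashed line. The panels have their own scales: the positive controls lie between 3.38% and 13.3%, and the negative controls lie at or below 0.0137% apart from experiment 15 at 0.358%.

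Positive controls averaged 8.09% ± 2.41 and negative controls 0.0250% ± 0.0890 (SD, n = 16 each). The difference of means was 8.06 percentage points (permutation test, two-sided, p = 2e-05, which is the lowest that 100000 resamples reach). The positive control was higher in 16 of 16 experiments. In the 12 experiments with forward tables the means were 8.53% and 0.0319% (permutation test, p = 2e-05). In the 4 with reverse tables they were 6.76% and 0.00445% (exact permutation test, p = 0.0286, the lowest value possible with 4 against 4 libraries). Of the 127 reads with such a deletion in the negative controls, 115 came from experiment 15, and 8 negative controls had 0. Without experiment 15 the means were 8.02% and 0.00278%, with a difference of 8.02 percentage points.
Forward tables had a mean 1.77 percentage points above that of reverse tables among the positive controls. No difference was detected between them (n = 12 and 4, two-sided exact permutation test, p = 0.215). Among reads with any indel these deletions made up 20.2% ± 5.01 (SD, n = 16), from 12.6% in experiment 1 to 30.4% in experiment 2. Among short deletions of any microhomology they made up 92.4% ± 2.02 (SD, n = 16), from 86.5% in experiment 1 to 94.9% in experiment 8.

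Few deletions carried most of these reads. The 5 most frequent held 63.1% of the summed share and the 12 most frequent held 82.4%. Over the positive controls, 10 deletions were found in all 16 libraries, 27 in at least 15 and another 27 in only 1. The 10 found in every library held 74.9% of the share.

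**Figure D2:**
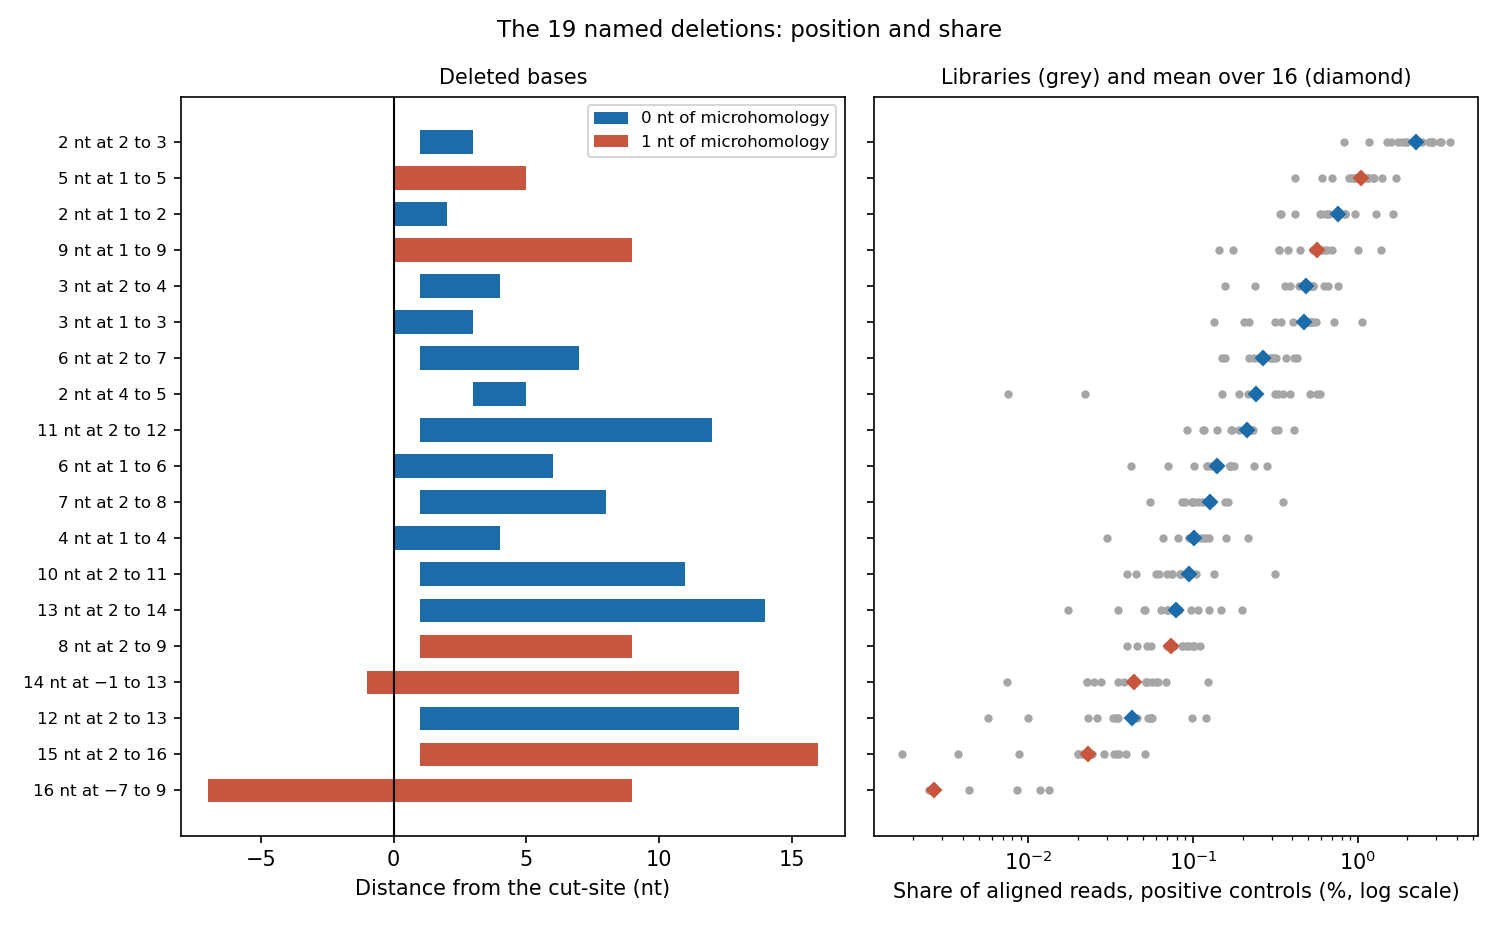
Position and share of the 12 most frequent deletions and of the most frequent one of each length. Left, deleted bases as bars by distance from the cut-site (nt); right, share of aligned reads (%, log scale) in each positive control (grey points, libraries at 0 not drawn) and the mean over all 16 (diamonds). All but 2 of the 19 bars lie right of the cut-site, and the means run from 2.26% to 0.00270%.

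The loss of 2 nt at 2 to 3, which takes a G and a C and spares the bases that flank the cut, was the most frequent of all. Its share ran from 0.820% in experiment 1 over a median of 2.23% to 3.63% in experiment 8 among the positive controls, and it was found in 2 negative controls, with 35 of its 36 reads there in experiment 15 (0.109%). No library of the positive controls fell to the level of any negative control. The mean was 2.26% ± 0.800 (SD, n = 16), and in 91.8% of its reads the rest of the 40 columns matched the reference.

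The loss of 5 nt at 1 to 5 followed, with 0.415% to 1.70% and a median of 1.06% among positive controls, and with 17 reads in 2 of the negative controls. Its mean was 1.04% ± 0.315 (SD, n = 16), and its spread relative to the mean, 30.2%, was the narrowest of the named deletions as listed. Experiment 5 was lowest and experiment 3 highest. These values include products that are more than a simple loss, since 82.4% of its reads matched the reference outside the gap. In experiment 8 its listed share was 1.24% of all reads, and products with an inverted stretch, described below, made up 1.05%. Spread and order of the libraries without such products were not calculated. The loss of both G right of the cut-site, 2 nt at 1 to 2, had 0.338% to 1.62% with a median of 0.708% and a mean of 0.759% ± 0.330 (SD, n = 16). In the negative controls its 12 reads were all in experiment 15.

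The loss of 9 nt at 1 to 9 had 0.144% to 1.39% with a median of 0.552% among positive controls, and 7 reads among negative controls, all in experiment 15. Experiment 8 was highest for this deletion, for the loss of both G and for the loss at 2 to 3. A pair of 3 nt losses came next at nearly the same level. The loss at 2 to 4 had a mean of 0.483% ± 0.149 and the loss at 1 to 3 a mean of 0.469% ± 0.218 (SD, n = 16 each). The gap, which was not tested, was far smaller than the spread between libraries. These are levels of the listed deletions and not of simple losses alone. Of their reads, 71.8% and 93.2% matched the reference outside the gap, and 22.0% and 2.49% held an inverted stretch, described below.

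Below these, the loss of 6 nt at 2 to 7 had a mean of 0.267% ± 0.105 (SD, n = 16) and reached 0.428% in experiment 4. It had 0 reads in experiment 8, which allows a share of up to 0.0128%, and between 0.150% and 0.428% in the other 15 positive controls. The loss of 11 nt at 2 to 12 was found in all 16, with a mean of 0.212% ± 0.0842. The losses of 6 nt at 1 to 6, 7 nt at 2 to 8 and 4 nt at 1 to 4 had means of 0.139%, 0.128% and 0.101%. The most frequent deletions of the remaining lengths were weaker still, from 0.0948% for 10 nt at 2 to 11 down to 0.00270% for 16 nt at −7 to 9, which was seen in 6 libraries.

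One named deletion depended on how the table was aligned. The loss of 2 nt at 4 to 5 had a mean of 0.320% in forward tables, where it reached 0.586% in experiment 14, and of 0.00745% in reverse tables, where it was at most 0.0223%. Only 3.91% of its reads matched the reference in the other columns. Its main product is shown with the differing base in capitals, followed by the site.
product of 2 nt at 4 to 5: accgccctgtgCcgctagtcatatgtgg
site with the protospacer: accgcccTGTGGCCAGCTAGTCATATGtgg
This product had 1107 reads in 11 forward libraries, all listed as a loss at 4 to 5 with 1 mismatch, and 476 reads in the 4 reverse libraries, all listed as a loss at 2 to 3 with 1 mismatch. Summed over both placements it made up 0.274% ± 0.162 in forward tables and 0.291% ± 0.0855 in reverse tables (SD, n = 12 and 4). The product was at 0 reads in experiment 8. Both placements belong to the deletions described here, so the total does not change, whereas the shares of the single deletions do.

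To compare single outcomes between the controls, each indel outcome with at least 20 reads over the 32 libraries was tested (two-sided permutation test, Benjamini-Hochberg adjustment over 127 outcomes). Of these, 115 were higher in the positive controls at an adjusted p under 0.05, which is 90.6%, and 0 were lower. Among the 155 deletions, 60 had enough reads to be tested and 60 were higher, while 95 with 568 reads in the positive controls were not tested. Since nearly all reads of these deletions are in the positive controls, those that reached the read minimum had to differ, and the count is given as a description.

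The next question is how these deletions compare with short deletions of the same lengths that have microhomology. In the positive controls, deletions with 0 or 1 nt ranged from 3.38% to 13.3% of reads and those with 2 or 3 nt from 0.390% to 1.28%, without overlap. The means were 8.09% ± 2.41 and 0.648% ± 0.223 (SD, n = 16 each). The difference of 7.44 percentage points ± 2.24 was seen in 16 of 16 libraries (two-sided sign-flip test over libraries, a permutation test, p = 3.05e-05, the smallest that 16 libraries allow; adjusted p = 6.1e-05, Benjamini-Hochberg over 6 paired tests). In the 4 reverse tables all 4 differences had this sign, but 4 libraries cannot give a sign-flip p below 0.125.

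The sequence offers many more deletions of the first kind. Of 113 possible products of 2 to 16 nt that cover or abut the cut-site, 103 have 0 or 1 nt of microhomology and 10 have more, and 77 of the 103 were seen. Only reads with one of these products enter the values per product. Those with 0 or 1 nt took 3.57% of all reads in the positive controls and those with 2 or 3 nt took 0.358%. Deletions that do not reach the cut-site, among them the most frequent of each class, the losses at 2 to 3 and at 2 to 5, are left out. Divided by the number of possible products, these shares were 0.0347% ± 0.0120 with 0 or 1 nt and 0.0358% ± 0.0152 with 2 or 3 nt (SD, n = 16 each). The log2 ratio was −0.03 ± 0.56 (SD, n = 16; sign-flip permutation test, p = 0.828, adjusted p = 0.828), above 0 in 7 of 16 libraries, so that no difference per possible product was detected against this spread. With all deletions that overlap window 20, which include those left out above, there were 267 and 20 possible products with 0.0303% ± 0.00903 and 0.0324% ± 0.0111 per product, and the log2 ratio was −0.10 (sign-flip permutation test, p = 0.322).
With 0 nt alone in place of 0 or 1 nt, the log2 ratio at the cut-site was −0.66 (sign-flip permutation test, p = 0.000153), where 1.75% of all reads stood over 78 possible products. The products with 0 nt that cover or abut the cut-site held 28.8% of the reads with 0 nt, and those with 1 nt held 88.1% of the reads with 1 nt. Per possible product the share was 0.0225% ± 0.00809 with 0 nt and 0.0727% ± 0.0264 over the 25 with 1 nt at the cut-site, and 0.0290% ± 0.00842 and 0.0347% ± 0.0119 with all deletions that overlap window 20 (SD, n = 16 each). The gap between 0 and 1 nt was thus much smaller once deletions away from the cut-site were counted, which was not tested.
Over all these deletions, whether or not they touch the cut-site, those with 0 nt were the more frequent. Deletions with 0 nt took 6.04% ± 1.75 of the reads and those with 1 nt 2.05% ± 0.704 (SD, n = 16 each), a difference of 4.00 percentage points in 16 of 16 libraries (sign-flip permutation test, p = 3.05e-05, adjusted p = 6.1e-05). The losses of 5 nt at 1 to 5 and 9 nt at 1 to 9, whose shared base is a G, were the main deletions with 1 nt.

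At the edges of the rule the values were as follows. Deletions of 2 to 16 nt had 2.05% ± 0.704 with 1 nt of microhomology and 0.628% ± 0.220 with 2 nt. Among deletions with 0 or 1 nt, the loss of a single base, left out by the rule, took 23.8% ± 7.41, and losses of 2 nt took 3.41% ± 1.07. At the upper edge, losses of 16 nt took 0.00767% ± 0.00762 and losses of 17 nt, which reverse tables do not list, took 0.0351% ± 0.0328 (SD, n = 16 each).

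Deletions with little microhomology were mostly very short. Losses of 2 nt made up 42.1% of their share, and the levels were uneven beyond that, with 1.11% for 3 nt, 0.168% for 4 nt, 1.07% for 5 nt and 0.614% for 9 nt. From 12 nt on, each length had at most 0.110% of the reads. The class with microhomology had other lengths. It was strongest at 4 nt with 0.220%, at 16 nt with 0.122% and at 2 nt with 0.120%, and 6 of the 15 lengths had 0 reads. At each of these 6 lengths the site offers no product of this class that covers or abuts the cut-site. The same holds at 4 nt, where the losses counted do not reach the cut-site.

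**Figure D3:**
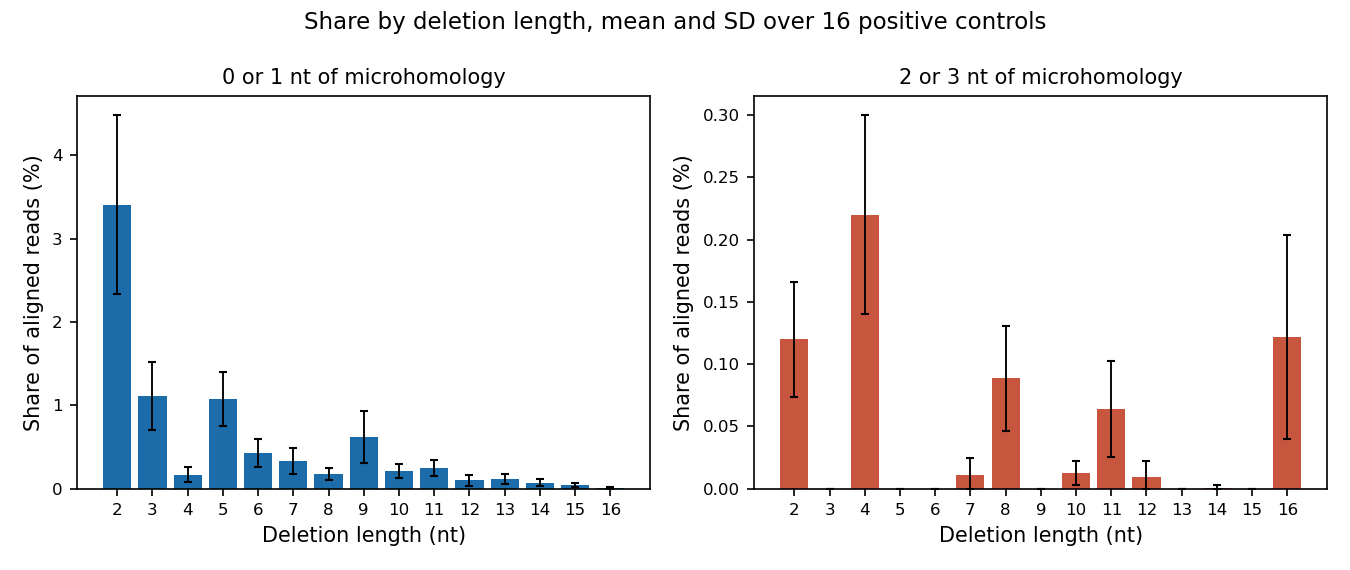
Share of aligned reads (%) by deletion length (nt) for short deletions with 0 or 1 nt of microhomology (left) and with 2 or 3 nt (right), as means over the 16 positive controls with SD as error bars, cut off at 0. The panels have their own scales: 2 nt losses reach 3.41% on the left, and 4 nt losses reach 0.220% on the right.

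The mean length over reads was 4.36 to 4.99 nt with 0 or 1 nt of microhomology and 3.28 to 9.00 nt with 2 or 3 nt. The means were 4.58 nt ± 0.199 and 7.32 nt ± 1.37 (SD, n = 16 each), and the difference of −2.74 nt was negative in 15 of 16 libraries (sign-flip permutation test, p = 6.1e-05, adjusted p = 9.16e-05). Experiment 8 was the exception, with 4.41 nt and 3.28 nt, and without it the difference was −3.00 nt. All 4 reverse tables shared the direction. The lengths at which the site offers products differ between the classes, and the test makes no allowance for this.

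The positions of the lost bases were one-sided. Deletions wholly right of the cut-site, on the side away from the PAM, took 7.79% ± 2.32 of the reads. Those wholly left of it took 0.0859% ± 0.0906, and those across it 0.215% ± 0.100 (SD, n = 16 each). The right side exceeded the left by 7.70 percentage points, in 16 of 16 libraries (sign-flip permutation test, p = 3.05e-05, adjusted p = 6.1e-05), and it held 96.3% ± 1.01 of these reads. With deletions of 1 nt microhomology placed as far right as possible the difference was 7.86 percentage points.

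**Figure D4:**
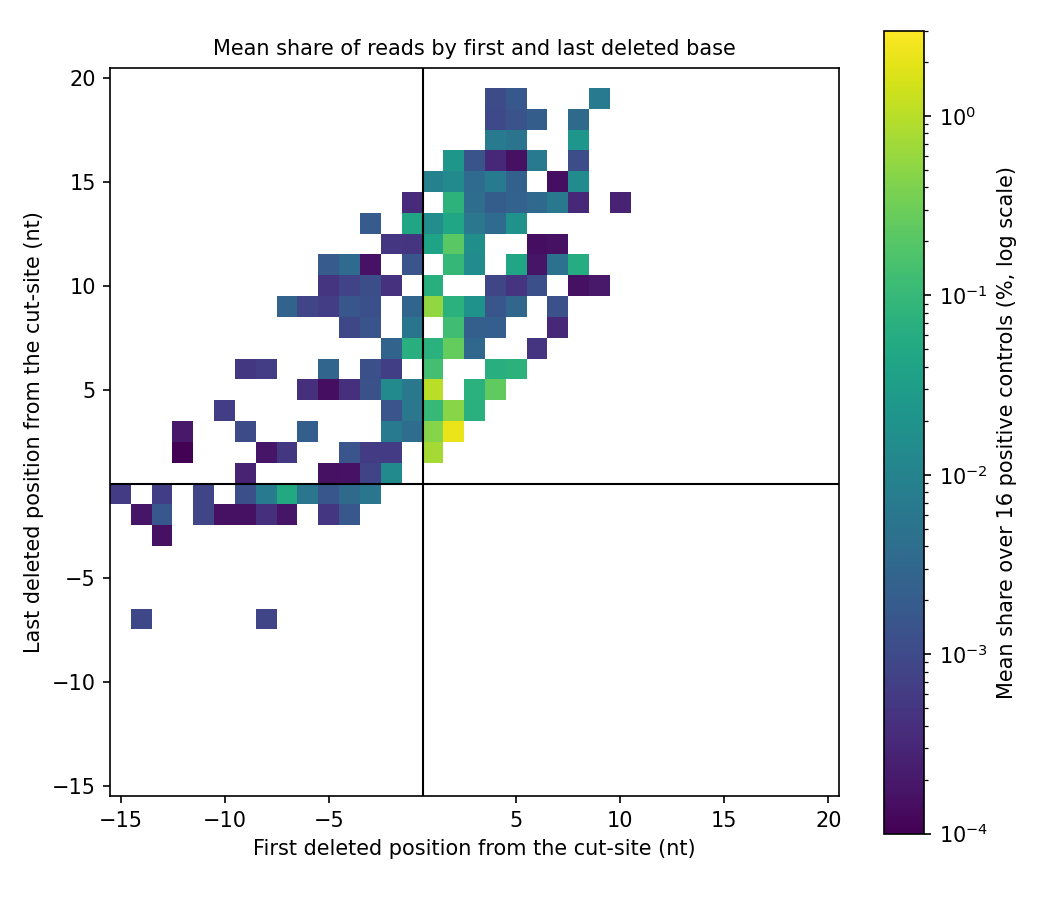
Mean share of reads over the 16 positive controls (%, log colour scale) for each deletion with 0 or 1 nt of microhomology, by its first (x) and last (y) deleted position from the cut-site (nt), which black lines mark. The brightest cells stand in the columns of first positions 1 and 2, to the right of the cut-site, and the brightest of all is the loss at 2 to 3 with 2.26%.

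Most of these deletions began at the first or the second base right of the cut-site. Those that began at position 1 made up 40.1% ± 3.49 of the reads of the class and those that began at position 2 made up 46.0% ± 6.72 (SD, n = 16 each). Position 2 was the more frequent start in 11 of 16 libraries, a count that was not tested. These values depend on where deletions with 1 nt of microhomology are written, since the losses at 1 to 5 and at 1 to 9 can also begin at position 2. With the rightmost placement, starts at position 1 made up 21.8% ± 2.51 and starts at position 2 made up 64.3% ± 6.07 (SD, n = 16 each). Starts further right were less frequent, with 0.213% ± 0.119 of all reads at position 3, 0.332% ± 0.239 at position 4, which includes the loss at 4 to 5, and 0.154% ± 0.0821 at position 5. Just left of the cut-site, deletions that began at −1 took 0.138% ± 0.0669 (SD, n = 16 each). Many reads with starts at positions 3 to 5 carried mismatches, and their starts are those of the alignment. The most frequent losses from position 3, at 3 to 5 and 3 to 4, matched the reference outside the gap in 12.0% and 5.21% of reads. From position 4, the losses at 4 to 5 and 4 to 6 did so in 3.91% and 92.2%. From position 5, the losses at 5 to 6 and 5 to 11 did so in 2.00% and 0.866%. As listed, with products that are more than a simple loss included, the 3 nt losses at 2 to 4 and at 1 to 3 had nearly equal shares. The 2 nt loss at 2 to 3 had 2.26% and that at 1 to 2 had 0.759%.

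The narrow window of the analysis scores only the base on each side of the cut-site. The losses of 2 nt at 2 to 3, 3 nt at 2 to 4 and 6 nt at 2 to 7 were counted as unmodified in window 2 in 99.96%, 100% and 100% of their reads, and those that begin at position 1 in 0%. Of all reads with these deletions, 49.4% to 61.4% were not counted as modified in window 2, against 28.1% to 64.0% for deletions with 2 or 3 nt of microhomology. The means were 55.6% ± 3.91 and 45.0% ± 10.4 (SD, n = 16 each), and the difference of 10.6 percentage points was positive in 15 of 16 libraries (sign-flip permutation test, p = 0.000977, adjusted p = 0.00117). Experiment 8 went the other way with 51.1% and 64.0%, and without it the difference was 12.1 percentage points. The most frequent deletion with microhomology, 4 nt at 2 to 5, also starts at position 2. Whether a read counts in window 2 depends on where its gap is written, and microhomology lets a gap be written in several places. Since the classes are defined by this, the test cannot separate placement from a difference between the deletions. With 0 nt only in place of 0 or 1 nt the difference was 25.3 percentage points. With alleles without any mismatch only it was 16.8 percentage points.

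**Figure D5:**
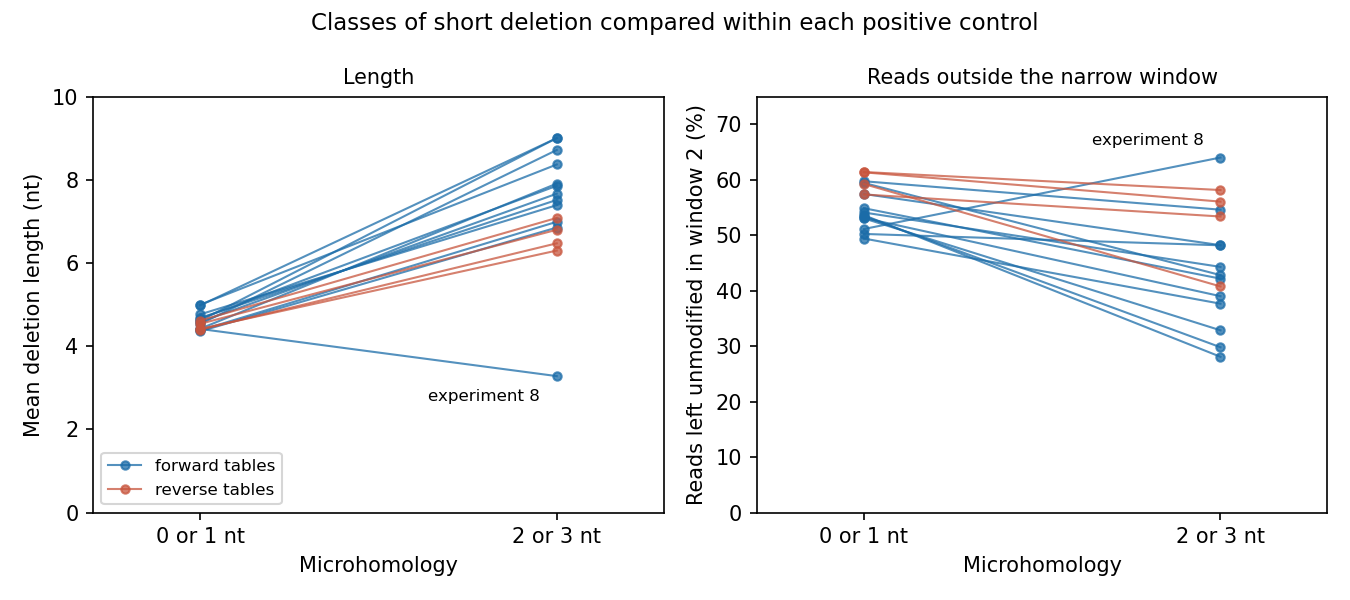
Mean deletion length (nt, left) and percent of reads left unmodified in window 2 (right) for short deletions with 0 or 1 nt and with 2 or 3 nt of microhomology, with 1 line per positive control. Lengths are lower on the side of 0 or 1 nt in 15 of 16 libraries and percents are higher there in 15 of 16, and experiment 8 is the exception in both.

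Some of the aligned deletions are more than a simple loss. Of the reads of the class in the positive controls, 80.5% matched the reference outside the gap, 9.89% had 1 mismatch and 9.59% had at least 2. A feature noticed after the values were seen is a stretch of at least 8 nt of the site in inverted form, as its reverse complement. It was found in 98 alleles and 2597 reads, 6.08% of the reads of the class, in each of the 16 positive controls and 1 negative control. Its share was 0.103% to 1.43% of all reads among positive controls, with a median of 0.467%, and 0.0125% in the negative control of experiment 15. The 2 most frequent products are shown with the inverted stretch in capitals.
inverted, listed as 5 nt at 1 to 5: accgccctgtGCTGGCCAtatgtgg
inverted, listed as 3 nt at 2 to 4: accgccctgtgAGCTGGCCAtatgtgg

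The capitals read as the opposite strand of positions −1 to 7 and of −1 to 8, followed by the sequence of the site from further right. The end of both stretches, TGGCCA, is its own reverse complement and also stands unchanged in the site. The inverted reading therefore rests on the few other capitals, and other readings of these products were not tested. The first product was in all 16 positive controls with a mean of 0.153% ± 0.238 (SD, n = 16), and it reached 1.03% in experiment 8. Over all products with an inverted stretch that were listed as 5 nt at 1 to 5, the share was 1.05% in experiment 8 and 0.0956% ± 0.0420 in the other 15 libraries. The second was in 15 with a mean of 0.106% ± 0.0837. Products with an inverted stretch made up 13.4% of the reads listed as 5 nt at 1 to 5, 22.0% of those listed as 3 nt at 2 to 4 and 73.7% of those listed as 2 nt at 3 to 4. The last percent rests mainly on forward tables. There the loss at 3 to 4 had a mean of 0.0889%, against 0.0114% in reverse tables, and its inverted products were in 11 libraries. With alleles without any mismatch only, the difference between positive and negative controls in the share of all these deletions was 6.51 percentage points (permutation test, p = 2e-05).

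The last comparison sets the share of these deletions beside that of other outcomes across the 16 positive controls. All are shares of the same reads, so they are not independent, and 12 coefficients were adjusted together by the Benjamini-Hochberg method. The share was higher where short deletions with 2 or 3 nt of microhomology were more frequent (permutation tests; Pearson r = 0.776 with p = 0.00032 and adjusted p = 0.00384, Spearman rho = 0.724 with p = 0.00221 and adjusted p = 0.0133). In the 12 forward tables r was 0.722 (permutation test, adjusted p = 0.0506) and rho 0.573 (adjusted p = 0.0830). Without experiments 3 and 4, the libraries farthest from the median, r was 0.603 (permutation test, adjusted p = 0.0538) and rho 0.635 (adjusted p = 0.0506), so the relation rests in part on these libraries. The 4 reverse tables are too few for a coefficient of their own. Taken as a percent of indel reads, the share of these deletions had r = 0.395 and rho = 0.221 with the same deletions (permutation tests, adjusted p = 0.269 and 0.490), past no threshold.
With the loss of a single base, the most frequent outcome at this site, r was 0.503 and rho 0.509 (permutation tests, adjusted p = 0.0797 for each). In the forward tables r was 0.272 (permutation test, adjusted p = 0.403), and without experiments 5 and 10 it was 0.339 (adjusted p = 0.312). As a percent of indel reads, it had r = −0.391 with single-base losses (permutation test, adjusted p = 0.269).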

How the data were processed

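PCR amplicons of the Mr-cofilin site were read by MiSeq, and the authors analysed them in CRISPResso2 for windows of 2 and 20 nt; its version and parameters are not given in the sources used here. The 64 deposited tables hold, per allele over 40 columns, the read count as counted by the authors, without normalization, and the percent of all aligned reads, which sums to 100. Shares were calculated from the counts, and all alleles were kept, those with 1 read included. Libraries were the replicates. Groups were compared by permutation tests (100000 resamples, seed 1) or exact ones, classes within libraries by enumerated sign-flip tests. The experiment number pairs the controls, since both used eggs of the same female; their deviations from the group means had r = 0.0988 (n = 16, permutation p = 0.626). Named are the 12 deletions with the largest mean share in the positive controls and the largest of each length. The deletions and lists were chosen with earlier results of these data known. The calculations, tested on simulated data, used SciPy 1.17.1 and NumPy 2.4.6 with pandas 2.3.3 under Python 3.11.15, and figures were drawn with Matplotlib 3.10.9.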

Additional observations from a re-analysis of the deposited data

Results flagged for a closer look

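Among the 4 reverse tables, experiment 5 lay far from the others in one comparison. The percent of reads not counted in window 2 was 18.5 percentage points higher for deletions with 0 or 1 nt of microhomology than for those with 2 or 3 nt, at 59.2% and 40.8%. The other 3 experiments had differences of 3.97, 3.25 and 5.28 percentage points. Of 9 groups of 4 libraries checked this was the only one with a library so far out, and chance alone marks about 1 group in 20.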

How the results depend on the processing

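With experiment as a replicate block, the difference between positive and negative controls was 8.06 percentage points (sign-flip permutation test, p = 3.05e-05) and the same 60 deletions were higher, while 114 in place of 115 of all 127 outcomes were. With 0 nt only, the log2 ratio per possible product was −0.66 (sign-flip permutation test, p = 0.000153). The window 2 difference was 25.3 percentage points with 0 nt only and 16.8 with alleles without any mismatch only. With at least 100 reads per outcome, 31 deletions were tested and higher, since fewer were tested. As a percent of indel reads, the correlations with single-base losses changed sign (r = −0.391, rho = −0.321; permutation tests, adjusted p = 0.269 and 0.350) and those with deletions of 2 or 3 nt of microhomology fell below the threshold (r = 0.395, rho = 0.221; adjusted p = 0.269 and 0.490); the cause was not tested. Leaving out 1 experiment at a time gave 7.72 to 8.38 percentage points for positive against negative controls, 0.638 to 2.77 for forward against reverse tables and 7.14 to 7.74 for 0 or 1 nt against 2 or 3 nt. It gave −0.12 to 0.05 for the log2 ratio, with a sign above 0 without experiment 1 (0.0517) or 5 (0.0210), −3.00 to −2.63 nt for length, 9.56 to 12.1 points for window 2, 3.86 to 4.15 for 0 against 1 nt, 7.38 to 8.00 for right against left and 58 deletions without experiment 15. Counting the same products in any alignment, chosen after seeing the data, gave 8.14 percentage points for positive against negative controls and 1.78 for forward against reverse tables. Of 167 alternatives, 159 kept direction and side of the threshold. Depth limits single deletions: 0 reads allow up to 0.0172% in the smallest library.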

Other observations

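On the left side of the cut-site, the side of the PAM, a loss of 7 nt at −7 to −1 was the most frequent deletion with little microhomology and was found in all 16 positive controls. It has 1 nt of microhomology, a G, and can also be written 1 nt further right, where it crosses the cut-site. It lies outside the rule for named deletions and was picked with its values in view. Its share was 0.405% in experiment 8 and 0.00252% to 0.0778% in the other 15 positive controls, and 0 reads of it were found in the negative controls. In the leftmost placement, experiment 8 also had 0 reads of any deletion across the cut-site, which made up 0.0646% to 0.429% in the other positive controls. In the rightmost placement the loss at −7 to −1, which experiment 8 holds, would itself be counted as across the cut-site.
The loss of 4 nt at 8 to 11 and the loss of 7 nt at 5 to 11, also chosen after their values were seen, were found in 11 positive controls each, all with forward tables. Only 0% and 0.866% of their reads matched the reference outside the gap. Whether reverse tables list the same products as other deletions was not tested. In 95.2% of the reads listed as 4 nt at 8 to 11, the product held an inverted stretch.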
